A study of Mus musculus with 6 samples.

Results

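Blood vessels set their own tone through a small number of mediators that endothelial cells (ECs) make, cleave or bind, and 9 of their genes were followed here: Edn1, Ece1 and Ednrb of the endothelin system, Nos3 of the nitric oxide system, Ptgs1, Ptgs2, Ptgis and Ptges of the prostanoid system, and Ace, the angiotensin-converting enzyme. They were chosen by name as mediators of vessel tone, and their rows were found by gene symbol among the 24457 genes of the expression tables. RNA was sequenced from 3 subsets of ECs of the mouse thymus, with 2 libraries per subset and 6 in all. All samples came from the thymus of wild-type female C57BL/6 mice labelled as 4 to 6 weeks old. The ECs were gated as CD31+CD45-EpCAM-, without blood-cell or epithelial surface markers, then split by the surface proteins Ly6C and P-selectin (Selp) into Ly6C+Selp- (type I), Ly6C+Selp+ (type II) and Ly6C-Selp+ (type III) ECs, at a sorted purity of at least 90%. The Ly6C-Selp+ subset is the one the study names thymic portal ECs. No group carried a treatment or a deletion. The labels do not say whether the libraries of a subset came from separate mice, so that p-values measure only the spread between these samples, which may be technical.

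Endothelin-1, the product of Edn1, is cut from its precursor by the converting enzyme Ece1. It constricts vessels through the type A receptor on smooth muscle, while the type B receptor Ednrb on ECs clears it and triggers the release of nitric oxide. Nitric oxide from endothelial nitric oxide synthase, encoded by Nos3, relaxes smooth muscle, and so does prostacyclin. The cyclooxygenases Ptgs1 and Ptgs2 make the common precursor from which Ptgis forms prostacyclin and Ptges forms prostaglandin E. Ace, which sits on the surface of ECs, forms angiotensin II and breaks down bradykinin.

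Expression is given as FPKM, the fragments of a gene corrected for transcript length and library depth. The fragments read back from the deposited confidence bounds summed to between 1452476 and 2423171 per library, and 3 fragments corresponded to a median FPKM of 0.40 to 0.72, below which differences were not detectable at this depth. The summed FPKM of 7 endothelial markers was 1618 to 2047 in the 6 libraries, and all 7 were present in every library. Differences are given on the log2(FPKM + 1) scale, which understates changes of genes with a low FPKM, with the adjusted p of limma over the 11717 genes tested and a threshold of 0.05. Between type III and type I ECs, 4.14% of the genes tested passed the threshold, and 2.05% passed as lower in type III ECs. Between type II and type I ECs 0.393% passed, and between type III and type II ECs 0.222% passed. At an unadjusted limma p under 0.05 were 1648, 877 and 1170 of the 11717 genes in these 3 comparisons, in that order.

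Of the 9 genes, 3 were higher in type III than in type I ECs: Edn1, 3.65-fold by the ratio of mean FPKM, Ptgs1, 5.03-fold, and Ptgs2, 5.75-fold, where 2.09% of all genes tested were higher. The fold of Ptgs2 was 13.6 without type I replicate 1 and 3.64 without type I replicate 2, while the folds of Edn1 and Ptgs1 moved by less than 1.5 times without any single library. None of the 9 passed as lower. Nos3 and Ace differed by less than 0.20 on the log2 scale in this comparison. All 9 passed the filter on low values, which asked for an FPKM of 1 or more in 2 or more libraries, although Ptgis did so with exactly 2 libraries and Ptges with 3. In bulk RNA of this kind, fewer cells of a type and less RNA per cell cannot be told apart.

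**Figure D1:**
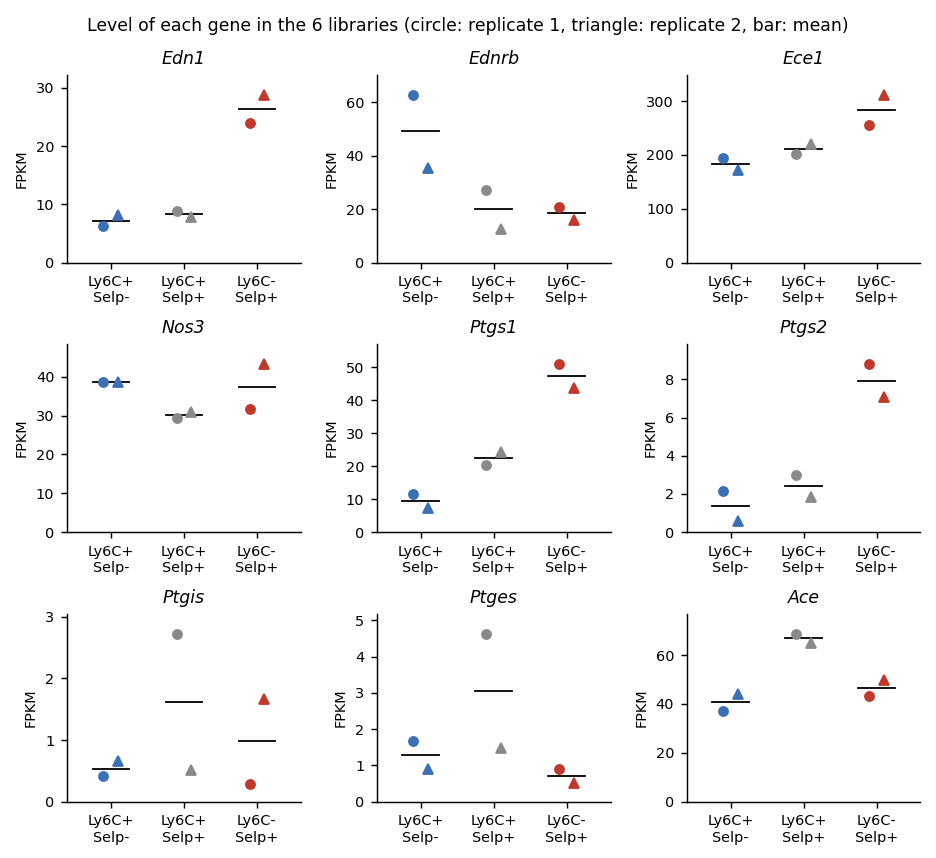
FPKM of the 9 genes in each of the 6 libraries, 1 panel per gene, with points for the 2 libraries of each subset and a bar at their mean; the vertical axes start at 0 and differ between panels. Edn1, Ptgs1 and Ptgs2 are highest in type III ECs, Ednrb is highest in type I ECs and Ace in type II ECs.

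The gene for the endothelin ligand, Edn1 (chr13:42396639-42403358 in mm9), had an FPKM of 6.24 and 8.22 in replicates 1 and 2 of type I ECs, 8.84 and 7.78 in type II ECs, and 23.9 and 28.8 in type III ECs. Both type III libraries were above all 4 others, whose ranges overlapped. These values rest on 41 to 231 fragments per library. The mean FPKM was 7.23 ± 1.40 in type I and 26.4 ± 3.48 in type III ECs (SD, n = 2 each), a log2 difference of 1.74 ± 0.28 (SE) with a limma adjusted p of 0.0087. Without type III replicate 2 the log2 difference for Edn1 was 1.61 with an adjusted p of 0.069, so the call rests on that library. Against type II ECs Edn1 was higher by 1.55 ± 0.28 in type III ECs, with non-overlapping ranges and an adjusted p of 0.073 that missed the threshold. Types I and II differed by 0.19 in Edn1, with a 95% interval of -0.45 to 0.82.

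The enzyme gene Ece1 (chr4:137418152-137521144) had the highest FPKM of the 9 genes in every library. Its FPKM was 194 and 172 in type I ECs, 201 and 221 in type II ECs and 256 and 312 in type III ECs. The 3 subsets did not overlap, with the order of Edn1, but no pair passed the test. The log2 difference of Ece1 between type III and type I ECs was 0.63 ± 0.23 (limma adjusted p = 0.23).

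For the receptor gene Ednrb (chr14:104213832-104243693) the order was the opposite. Its FPKM was 62.9 and 35.4 in type I ECs, 27.4 and 12.5 in type II ECs and 20.7 and 16.1 in type III ECs. Both type I libraries lay above the other 4, which overlapped, and replicate 1 was higher than replicate 2 in each subset. The log2 difference for Ednrb between type III and type I ECs was -1.32 ± 0.40, with a limma adjusted p of 0.13. That p was 0.036 after quantile scaling and 0.034 after median-of-ratios scaling of the libraries. For type II against type I ECs the log2 difference was -1.30 with an adjusted p of 0.36.

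Within a library, where a scaling factor common to all genes cancels, the FPKM of Ednrb was 10.1 and 4.31 times that of Edn1 in type I ECs, 3.09 and 1.61 times in type II ECs, and 0.867 and 0.558 times in type III ECs. The FPKM of the receptor was thus above that of the ligand in all 4 libraries of types I and II and below it in both type III libraries, and the 3 subsets did not overlap. The FPKM of Ece1 was 20.9 to 31.0 times that of Edn1 in the libraries of types I and II and 10.7 and 10.8 times in the type III libraries. The smallest p of an exact two-sided permutation test of 2 libraries against 2 is 0.33, and these ratios were therefore not tested.

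**Figure D2:**
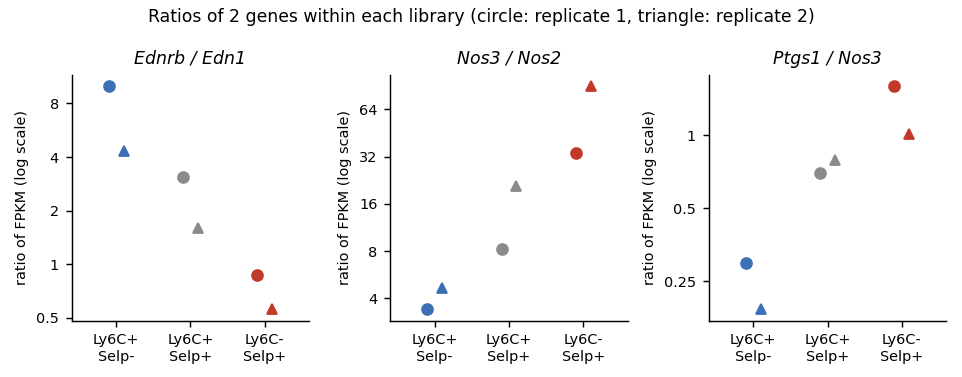
Ratios of FPKM between genes within each of the 6 libraries, on log axes, with a circle for replicate 1 and a triangle for replicate 2 of each subset. The ratio of Ednrb to Edn1 goes from 10.1 and 4.31 in type I to 0.867 and 0.558 in type III ECs, that of Nos3 to Nos2 from 3.40 and 4.67 to 33.8 and 90.5, and that of Ptgs1 to Nos3 from 0.298 and 0.191 to 1.61 and 1.01. The Nos2 values of type III ECs rest on only 8 and 7 fragments.

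Of 6 further endothelin genes, 3 were tested and 3, Edn2, Edn3 and Kel, were listed at 0 in every library, so that Edn1 was the only endothelin ligand gene above 0; these 3 were named after their values had been seen. The gene that passed was Mme, which encodes neprilysin, a surface peptidase that degrades endothelins among other peptides. Its FPKM was 0.17 and 0.046 in type I, 1.11 and 0.57 in type II and 6.84 and 4.33 in type III ECs, a log2 difference of 2.55 ± 0.39 between the outer subsets (limma adjusted p = 0.0069). Outside type III ECs only type II replicate 1 reached an FPKM of 1. Mme thus passed the filter on low values only through the subset where it was high. The type I values of Mme rest on 2 and 0 fragments, so no ratio is given, and the adjusted p was 0.064 without type III replicate 1. Ednra, the type A receptor, singled out after its values had been seen, had a mean FPKM of 8.17, 8.67 and 2.15 in the subsets in the same order (log2 difference -1.62 between the outer subsets, limma adjusted p = 0.13).

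Nos3 (chr5:23870637-23890292) did not pass in any comparison. Its FPKM was 38.6 and 38.6 in type I ECs, 29.4 and 30.8 in type II ECs and 31.7 and 43.2 in type III ECs. Both type II libraries were the lowest of the 6, while the other subsets overlapped. The log2 difference of Nos3 between type III and type I ECs was -0.06, with a 95% interval of -0.62 to 0.51 and a limma adjusted p of 0.96, and it was 0.16 without type III replicate 1. The interval for type II against type I ECs was -0.91 to 0.22 around -0.35. Nos3 shares 294 of its 4132 exonic bases with the antisense gene Atg9b, whose FPKM was 0.36 to 1.65, and the library kit does not mark strand. It also shares 1040 with the antisense transcript Gm15587, counted separately, so these may include some of the 294. Gm15587 has no row in the tables, so that reads from it cannot be told apart from those of Nos3.

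Beside Nos3, Nos2 and Cav1 were lower in type III than in type I ECs. Of 16 genes besides Nos3, 13 were tested, 2 passed as lower and 0 as higher, with a median log2 difference of -0.53 beside 0.08 over all genes tested, and 6 were at an unadjusted p under 0.05, Ddah1 among them as higher. Nos2, the inducible nitric oxide synthase, had an FPKM of 11.3 and 8.28 in type I, 3.55 and 1.49 in type II and 0.94 and 0.48 in type III ECs. The 3 subsets did not overlap in Nos2, and the log2 difference between the outer ones was -2.66 ± 0.40 (limma adjusted p = 0.0065). As a ratio within a library, the FPKM of Nos3 was 3.40 and 4.67 times that of Nos2 in type I, 8.30 and 20.7 times in type II, and 33.8 and 90.5 times in type III ECs. The Nos2 values behind these ratios rest on 135 and 122, 32 and 21, and 8 and 7 fragments, so the type III ratios are imprecise.

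Cav1, the coat protein of caveolae, which binds and restrains the endothelial synthase, had an FPKM of 529 and 343, 350 and 248, and 175 and 137 in the subsets in the same order. It was lower in type III than in type I ECs by a log2 difference of -1.45 ± 0.30 (limma adjusted p = 0.027). The call for Cav1 was lost without type I replicate 1 (adjusted p = 0.072), type III replicate 1 (0.077) or type III replicate 2 (0.15), and also without the filter on low values (0.10) or without the trend (0.072). Gucy1a3 and Gucy1b3, the subunits of the guanylate cyclase that senses nitric oxide, had log2 differences of -1.37 and -1.63 with adjusted p-values of 0.13 and 0.12. Ddah2, which degrades an inhibitor of the synthases, had a log2 difference of -1.24 (0.11), and Ddah1, of like function and named after its values had been seen, 1.18 (0.16), with a mean FPKM of 2.85 in type I and 8.14 in type III ECs. Nosip and Gch1, a partner of Nos3 and the enzyme that starts synthesis of its cofactor, had a mean FPKM of 12.4 to 15.1 and 7.99 to 10.7 over the subsets, with overlapping ranges between the outer ones.

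Ptgs1 (chr2:36085946-36107791) showed a step at each subset. Its FPKM was 11.5 and 7.37 in type I, 20.5 and 24.3 in type II and 51.0 and 43.9 in type III ECs. The 3 subsets did not overlap, and each of the 6 values rests on at least 76 fragments. The mean FPKM was 22.4 ± 2.69 in type II and 47.4 ± 5.03 in type III ECs (SD, n = 2 each), against 9.42 in type I ECs. Between the outer subsets the log2 difference of Ptgs1 was 2.24 ± 0.28 (limma adjusted p = 0.0027), and it passed under all 14 alternative settings tried. The steps on either side of type II ECs were 1.19 ± 0.28 (limma adjusted p = 0.17) and 1.05 ± 0.28 (0.23), and neither passed. The step from type I to type II ECs had an adjusted p of 0.048 after either quantile or median-of-ratios scaling.

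Ptgs2 (chr1:151947254-151955142) was lower in level than Ptgs1 in every library. Its FPKM was 2.18 and 0.58 in type I, 2.98 and 1.84 in type II and 8.79 and 7.08 in type III ECs. Both type III libraries lay above the other 4, which overlapped. The log2 difference of Ptgs2 between type III and type I ECs was 1.99 ± 0.42 (limma adjusted p = 0.030). Only 9 fragments stood behind the value of type I replicate 2. The call was lost without that library (log2 difference 1.48, adjusted p = 0.16), without type III replicate 1 (0.17) and without type III replicate 2 (0.083), with a pseudocount of 0.1 (0.053) and without the filter on low values (0.11). Ptgs1 made up 84.0% to 93.0% of the summed FPKM of both cyclooxygenases in the 6 libraries, and this share overlapped between the subsets.

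Because Ptgs2 is also an early-response gene, 11 immediate-early genes were read beside it. Between type III and type I ECs, none of the 11 passed as higher and 2 passed as lower, Dusp1 by -1.25 and Nr4a1 by -1.08 on the log2 scale (limma), with a median of -0.21. Their summed FPKM was 5497 and 4377, 4668 and 4353, and 3754 and 4368 in the subsets in the same order. Of the 11 differences 3 were positive and 5 were at an unadjusted p under 0.05. Atf3, among the positive ones, had an FPKM of 222 and 172 in type I and 299 and 299 in type III ECs (log2 difference 0.61, limma adjusted p = 0.25). The part of early-response transcription in the values of Ptgs2 was not tested.

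Ptgis (chr2:167028696-167066037) and Ptges (chr2:30744991-30758817), which turn the common precursor into prostacyclin and prostaglandin E, were near the limit of detection. The FPKM of Ptgis was 0.41 and 0.66, 2.72 and 0.52, and 0.29 and 1.67 in the subsets in the same order, from 1 to 10 fragments, and all the subsets overlapped. Ptges had an FPKM of 1.66 and 0.89 in type I, 4.63 and 1.48 in type II and 0.90 and 0.53 in type III ECs, from 7 to 38 fragments. Both type III libraries were below both type II libraries in Ptges, by a log2 difference of -1.13 with a limma adjusted p of 0.47. Ptgis shares 156 of its 2567 exonic bases with the antisense RNA 1110018N20Rik.

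Of 17 further prostanoid genes, 12 were tested between type III and type I ECs, 1 passed as higher and 0 as lower, and the median log2 difference was 0.28. The gene that passed was Slco2a1, the carrier that takes prostaglandins up into cells. Its FPKM was 7.56 and 8.05 in type I, 11.1 and 16.7 in type II and 35.0 and 32.3 in type III ECs. Like Ptgs1, Slco2a1 did not overlap between any of the subsets, and the log2 difference between the outer ones was 1.98 ± 0.28 (limma adjusted p = 0.0051). Ptges3, a cytosolic prostaglandin E synthase that also serves as a cochaperone, was the most abundant of these genes with a mean FPKM of 37.1, 40.7 and 46.1 in type I, type II and type III ECs and overlapping ranges. Among receptors, Ptger1 had a mean FPKM of 27.6, 22.8 and 23.4 in the same order and Ptger4 of 12.5, 7.63 and 6.91, and neither passed. Abcc4, which exports prostaglandins, had a mean FPKM of 12.1, 10.8 and 14.2.

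Ace (chr11:105829259-105851278) was the only gene of the 9 with both type II libraries above the other 4. Its FPKM was 37.2 and 44.2 in type I, 68.7 and 65.0 in type II and 43.2 and 49.9 in type III ECs. The 2 outer subsets overlapped, with a log2 difference of 0.19 and a 95% interval of -0.34 to 0.72. Type II ECs were higher than type I ECs by 0.71 ± 0.23, with a 95% interval of 0.18 to 1.24 and a limma adjusted p of 0.42. Type III ECs were lower than type II ECs by a log2 difference of -0.52 (limma adjusted p = 0.52). Neither difference of Ace passed the threshold. Ace shares 295 of its 5287 exonic bases with the antisense transcript Gm11651, which was listed at 0 in every library.

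Of 12 further genes of angiotensin and kinin signalling, 5 were tested and 1 passed, as lower in type III than in type I ECs, with a median log2 difference of -0.70. Agtr1a, the angiotensin II receptor, had an FPKM of 9.03 and 3.80 in type I, 10.1 and 3.36 in type II and 0 and 0.25 in type III ECs. The fragments behind these Agtr1a values were 57 and 31, 49 and 26, and 0 and 2. The log2 difference was -2.63 ± 0.52 (limma adjusted p = 0.023), and the call was lost without type I replicate 1 (0.12) or either type III replicate (0.10 and 0.059), and without the filter on low values (0.11). Anpep, a surface peptidase that trims angiotensins, had a mean FPKM of 5.27, 7.83 and 14.0 (log2 difference 1.40, adjusted p = 0.13), while Enpep, another such peptidase and named after its values had been seen, had 7.52, 8.35 and 1.43 (log2 difference -1.73, adjusted p = 0.20). Agt, the precursor, and Ren1, renin, also named after their values had been seen, had a mean FPKM below 1 in each subset.

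**Figure D3:**
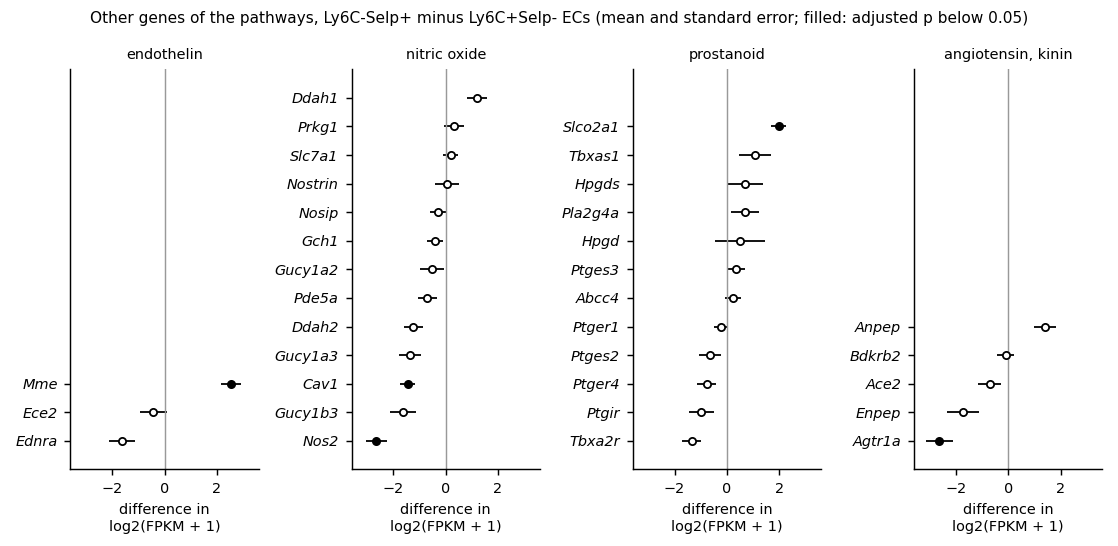
Log2 differences of the tested genes of the endothelin, nitric oxide, prostanoid and angiotensin lists between type III and type I ECs, with bars for the standard error from limma; filled points passed the threshold. Mme and Slco2a1 lie to the right at 2.55 and 1.98, and Nos2, Agtr1a and Cav1 to the left at -2.66, -2.63 and -1.45. Mme entered the test only through type III ECs, where it was high.

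In all, 5 of the 33 tested pathway genes passed between type III and type I ECs, 2 as higher and 3 as lower. Mme, counted among the 2, entered the test only through type III ECs, where it was high. Over all genes tested 4.14% passed, 2.09% as higher and 2.05% as lower. At an unadjusted limma p under 0.05 were 13 of the 33, beside 1648 of all 11717. Between type II and type I ECs limma called 0 of the 33, with 3 at an unadjusted p under 0.05, beside 877 of all 11717. Between type III and type II ECs it called 0, with 11 at an unadjusted p under 0.05, beside 1170.

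Ednra, Agtr1a, Gucy1a3 and Gucy1b3, of which only Agtr1a passed as lower, are also used by the smooth muscle cells and pericytes around vessels. For this reason 9 markers of these cells were read in the same libraries. Their summed FPKM was 550 and 239 in type I, 567 and 449 in type II and 180 and 258 in type III ECs. Of the 8 tested between the outer subsets, Pdgfrb and Notch3 passed as lower (log2 differences -1.85 and -1.73, limma adjusted p = 0.013 and 0.021) and Tagln as higher (1.60, 0.011), with a median of -1.21. Rgs5, a pericyte gene, went from an FPKM of 346 and 114 in type I to 48.6 and 45.4 in type III ECs (adjusted p = 0.057). Des and Cspg4 had log2 differences of -1.56 and -0.86 (limma adjusted p = 0.14 and 0.42). The contractile genes of the list went the other way: besides Tagln, Acta2 had an FPKM of 13.7 and 7.53 in type I and 16.9 and 33.8 in type III ECs (log2 difference 1.16, adjusted p = 0.18), Myh11 a log2 difference of 0.73 (adjusted p = 0.54), and Cnn1, which was not tested, an FPKM of 0 and 0 in type I and 0.50 and 1.01 in type III ECs. Ednra, Agtr1a, Gucy1a3 and Gucy1b3 had their lowest values in the same type III libraries as Pdgfrb and Notch3. The part of smooth muscle cells and pericytes in the values of these genes was not tested. The endothelial marker sum was 2047 and 1713 in type I and 1853 and 1889 in type III ECs, but its 7 genes did not move together. Their log2 differences were positive for 3 and negative for 4. Kdr passed as lower, from an FPKM of 206 and 173 in type I to 63.4 and 70.2 in type III ECs (log2 difference -1.49, limma adjusted p = 0.0079).

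**Figure D4:**
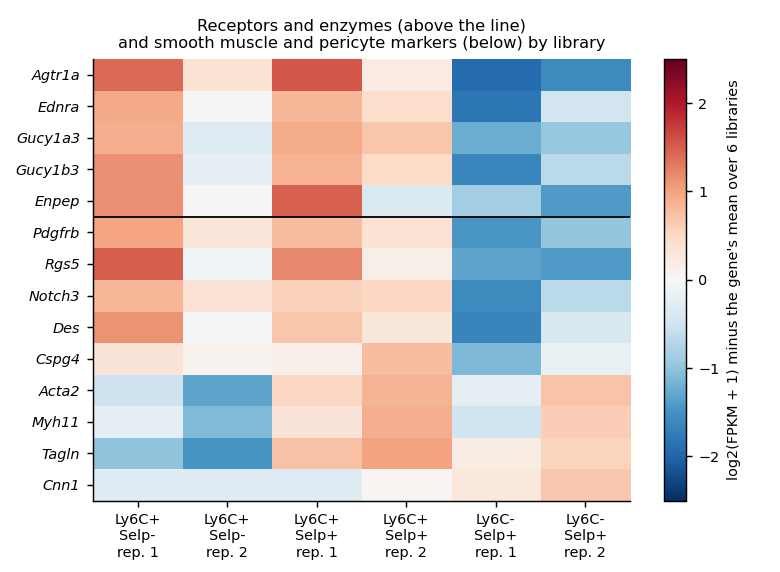
Levels in the 6 libraries of receptor, enzyme and cyclase genes, chosen for the plot after their values had been seen, above the 9 smooth muscle and pericyte markers, with the colour giving log2(FPKM + 1) minus the mean of the gene over the libraries. In type III ECs, Pdgfrb and Notch3 are low with Agtr1a, Ednra, Gucy1a3 and Gucy1b3, while Tagln and Cnn1 are not.

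Blood-cell RNA was read in the same way, since leukocytes also express Ptgs1 and Ptgs2. The summed FPKM of 10 haematopoietic markers was 104 and 31.6 in type I, 69.1 and 45.1 in type II and 182 and 77.9 in type III ECs. All 9 markers tested had a positive log2 difference between type III and type I ECs, with a median of 0.88 beside 0.08 over all genes tested, and limma called 0 of them, with 1 at an unadjusted p under 0.05. Between type III and type II ECs all 9 were positive too, with a median of 1.05 beside 0.14 over all genes tested. Limma called 0 of them there, with 3 at an unadjusted p under 0.05. The part of blood-cell RNA in the values of Ptgs1 and Ptgs2 was not tested.

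Among 4 markers of lymphatic ECs, limma called 0 between the outer subsets, with 3 at an unadjusted p under 0.05. Prox1, the regulator of lymphatic identity, had an FPKM of 0.32 and 0.52 in type I and 3.05 and 3.22 in type III ECs (adjusted p = 0.058), and Lyve1 was listed at 0 in both type I libraries and had 12.4 and 1.07 in type III ECs (0.14). Flt4 went the other way, with a log2 difference of -1.06 (0.080), so that the summed FPKM of the list, 9.85 to 30.1, does not show the rest. Prox1 and Lyve1 passed the filter on low values only through type III ECs, where they were high, and their p-values carry that limit. The part of lymphatic ECs in the results above was not tested. Limma also called 0 of the 7 markers of thymic epithelium, with 2 at an unadjusted p under 0.05 and sums of 14.2 to 50.0. Krt14, among these 2, passed the filter only through type III ECs. For 6 fibroblast markers both counts were 0. Fibroblast sums were 263 and 161 in type I, 427 and 261 in type II and 165 and 168 in type III ECs. All 6 log2 differences were positive for type II against type I ECs (median 0.78) and negative for type III against type II (-0.98). Limma called 0 in either, with 2 and 5 at an unadjusted p under 0.05. The part of fibroblast RNA in the values of Ace and Ptges was not tested.

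**Figure D5:**
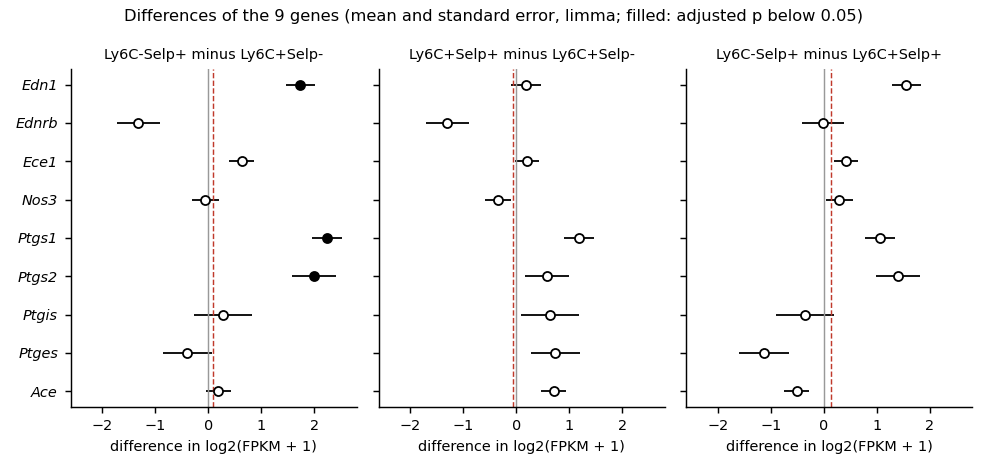
Log2(FPKM + 1) differences of the 9 genes in the 3 comparisons of subsets, with bars for the standard error from limma; filled points passed the threshold and the dashed line marks the median of all genes tested. Edn1, Ptgs1 and Ptgs2 passed between type III and type I ECs at 1.74, 2.24 and 1.99, and no gene passed in the other comparisons.

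Ranges that do not overlap between 2 libraries and 2 are common in these data. Between type III and type I ECs they did not overlap for 5 of the 9 genes, 4 higher (Edn1, Ece1, Ptgs1 and Ptgs2) and 1 lower (Ednrb), against 37.9% of all genes tested. Between type II and type I ECs the count was 5, with Ece1, Ptgs1 and Ace higher and Ednrb and Nos3 lower, against 33.6%. Between type III and type II ECs it was 7, with Edn1, Ece1, Nos3, Ptgs1 and Ptgs2 higher and Ptges and Ace lower, against 41.0%.

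Limma called 0 of the 9 genes in either comparison with type II ECs as 1 side. At an unadjusted p under 0.05 were 3 of the 9 against type I and 4 against type III ECs, beside 877 and 1170 of all 11717 genes. Over all genes, 0.324% passed as higher and 0.0683% as lower in type II than in type I ECs, that is 38 and 8 genes, which became 73 and 30 after quantile scaling and 68 and 29 after median-of-ratios scaling. In type III against type II ECs 0.0939% passed as higher and 0.128% as lower, 11 and 15 genes, which became 22 and 68, and 23 and 62. The median log2 difference of all genes in the latter comparison was 0.14 and moved to 0.01 after median-of-ratios scaling. Relative to that median, Edn1 was higher by 1.42, Ptgs2 by 1.27 and Ptgs1 by 0.91 in type III than in type II ECs, and Ace lower, at -0.65.

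The patterns of Edn1, Ptgs1 and Nos3 over the 6 libraries were compared with those of the 4200 genes with a mean FPKM of at least 10. By Pearson's r on log2(FPKM + 1), the genes most like Edn1 were Ptpn14 (0.989), Trim8 (0.982) and Clu (0.981), and 15 genes exceeded 0.95. Those most like Ptgs1 were Bace2 (0.999), Il2rg (0.998) and AU021092 (0.997), and 119 genes exceeded 0.95. For Nos3 they were Tie1 (0.981), Ruvbl2 (0.967) and Phrf1 (0.958), with 5 above 0.95. These r describe 6 points that share subset and library depth, and carry no test.

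The promoters of Edn1, Ptgs1 and Ptgs2 are shown because these 3 genes passed the test. Each sequence is the 250 bases before the start, read 5′ to 3′ on the plus strand of mm9, at chr13:42396389-42396638 for Edn1, chr2:36085696-36085945 for Ptgs1 and chr1:151946911-151947160 for Ptgs2, with GC boxes in capitals. Starts were taken from RefSeq or GENCODE, whichever lay further upstream. The starts of these sources lay 206 bases apart for Edn1, 93 for Ptgs2 and 0 for Ptgs1. The bases between them were not searched, so sites close to the downstream start are not covered.
Edn1: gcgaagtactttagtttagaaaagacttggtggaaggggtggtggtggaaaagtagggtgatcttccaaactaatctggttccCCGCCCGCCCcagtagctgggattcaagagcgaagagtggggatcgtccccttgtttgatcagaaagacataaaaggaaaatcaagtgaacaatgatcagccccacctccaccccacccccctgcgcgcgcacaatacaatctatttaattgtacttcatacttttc
Ptgs1: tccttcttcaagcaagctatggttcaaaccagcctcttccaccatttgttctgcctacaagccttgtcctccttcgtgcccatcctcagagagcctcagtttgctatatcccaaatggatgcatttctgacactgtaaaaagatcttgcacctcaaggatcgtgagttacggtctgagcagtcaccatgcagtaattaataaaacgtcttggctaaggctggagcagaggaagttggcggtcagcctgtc
Ptgs2: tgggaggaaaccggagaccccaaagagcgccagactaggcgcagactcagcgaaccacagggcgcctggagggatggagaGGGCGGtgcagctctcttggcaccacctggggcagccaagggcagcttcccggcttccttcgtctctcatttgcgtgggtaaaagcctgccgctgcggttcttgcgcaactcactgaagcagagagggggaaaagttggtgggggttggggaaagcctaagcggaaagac
Edn1 held 2 overlapping GC boxes and Ptgs2 held 1, while Ptgs1 held 0 of the 7 motifs searched. The motifs, on both strands, were the TATA box TATAAA, found in 12.3% of 32536 RefSeq promoter windows (GRCm38.p6) of the same length, the GC box GGGCGG (33.0%), a GATA site GATAA (22.5%), an AP-1 site TGANTCA (6.73%), an E-box CACGTG (6.04%), the core TGACG of the cAMP response element (17.9%) and the NF-kB core GGANTTTCC (1.07%). GC content was 48.0% in Edn1 and Ptgs1 and 61.6% in Ptgs2, beside a median of 52.4% over all windows. The Ptgs2 window also overlaps an exon of another gene, 7530420F21Rik. Of the 9 genes, 7 had an entry in the RefSeq table, and Nos3 and Ptgis did not. The windows of all promoters end at the RefSeq start, whereas that of Edn1 ends 206 bases further upstream, so its position differs from theirs. A match is a run of letters and not a binding site.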

How the data were processed

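RNA of 6 samples of sorted thymic ECs, 2 per subset, was sequenced from NEBNext Ultra libraries. Per the submitters' processing notes and the methods, the authors used CASAVA 1.8, mapped reads with TopHat2 2.0.10 to mm9 and computed FPKM with Cufflinks 2.1.1; the deposited FPKM come with confidence bounds, 1 table per sample, and the gene annotation is not given in the sources used here. Of 24552 rows, 95 for spike-in or reporter sequences were dropped, and the deposited values were not rescaled. Genes with FPKM of 1 or more in 2 or more samples entered 1 limma 3.58.1 fit (R 4.3.3; lmFit, eBayes with a trend) of log2(FPKM + 1) with a mean per subset, Benjamini-Hochberg adjusted. Cuffdiff, which the authors used, cannot be run on FPKM. Their list of genes differing between type I and type III ECs includes Ednrb, Ednra, Ddah1, Ddah2, Gucy1a3, Gucy1b3, Anpep and Enpep. None of these passed in the main limma fit. Fragments were read back from the bounds as if these held counting error alone, and 62.5% of those below 20 lay within 0.05 of a whole number. The 9 genes, the gene lists and the naming rule were chosen with earlier results of these data known. The rule names the 9 genes, pathway genes that passed or had a mean FPKM of at least 10 in a subset, the 3 genes most like Edn1, Nos3 and Ptgs1 by Pearson's r, and markers a result turns on; others are marked as chosen after their values were seen. The fit was tested on simulated data. Overlaps came from GENCODE mouse release M1. Alternatives were other pseudocounts, filters and scalings, the replicate number as a block, no trend, 4 samples only, and each library left out.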

Additional observations from a re-analysis of the deposited data

How the results depend on the processing

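With 2 libraries per subset, single libraries decide calls, and genes near 3 fragments cannot be compared. Counts of genes past the limma threshold are given for type III against type I, type II against type I, and type III against type II ECs, in that order, where they moved by over 1.5 times from 485, 46 and 26. Without the filter they were 317, 12 and 0 (1354 at an unadjusted p under 0.05), with 1 library left out 233 to 425, 12 to 46 and 5 to 47. The latter 2 were 103 and 90 after quantile scaling, 97 and 85 after median-of-ratios scaling, 15 and 10 without the trend, and 29 and 7 with 4 samples only. Among the 9 genes, 3, 0 and 0 passed; with 1 library left out the first count was 1 to 3, lowest without type III replicate 2, and quantile and median-of-ratios scaling each gave 1 in the second comparison, Ptgs1. With 1 library left out, Ednrb ranged from -0.56 to 0.51 and Ptgis from -1.01 to 0.17 between type III and type II ECs, and Nos3 from -0.27 to 0.16 between type III and type I ECs. The cause of these shifts was not tested, except that fewer samples or genes entered some fits.

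Only the replicate number is shared between subsets: deviations of same-numbered libraries from their subset means correlated at 0.31, 0.20 and 0.18 in the 3 comparisons, across genes, and 2 numbers do not establish a pairing. With the replicate number as a block, 971, 183 and 229 genes passed. Of the 9 genes 4, 1 and 1 passed, with Ednrb called in the first (adjusted p = 0.0079) and second (0.032) and Edn1 in the third (0.021). Of 366 values of the 9 genes under the alternatives, 349 kept their direction and their side of the threshold.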
